A study of Mus musculus with 31 samples.

Results

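The comparison described here sets long-term haematopoietic stem cells (LT-HSCs) that lost Dnmt3a against LT-HSCs that kept it, both from vehicle-treated mice and both carrying a mutant human JAK2 transgene. Its members were chosen by genotype and treatment label alone: the 4 libraries labelled VF vehicle and the 4 labelled VFDM vehicle, 8 of the 31 libraries and 2 of the 8 groups in the series. VF stands for SclCre;FF1;GFP and VFDM for the same alleles with a deletion that the sample labels write as Dnmt3 and the series design as Dnmt3a, so Cre driven by Scl regulatory sequence, the JAK2-V617F transgene and GFP are common to both groups. Marrow of either genotype was transplanted into wild-type mice together with a 10-fold excess of wild-type marrow, vehicle was given from 4 weeks after transplantation for 8 weeks, and the other arms received pegylated interferon-alpha (IFN), 5-azacytidine (AZA) or both (COMBO). LT-HSCs were sorted from bone marrow as lineage-negative Sca1+ cKit+ CD48- CD150+ cells. GFP is not named in that gate, so wild-type competitor stem cells that met it could enter the sort. The labels do not state that each library came from a separate mouse, so every p-value rests on library-to-library spread, which may be technical.

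DNMT3A is a de novo DNA methyltransferase: it places methyl groups on CpG sites that were unmethylated. In blood-forming stem cells its loss is known for favouring self-renewal over differentiation, and somatic DNMT3A mutations are among the most frequent lesions of clonal haematopoiesis. JAK2-V617F is an activated form of the kinase that relays signals from the erythropoietin, thrombopoietin and related receptors, and it drives myeloproliferative neoplasms, in which DNMT3A mutations also occur.

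Each of the 8 libraries held between 18804444 and 61662451 counts assigned to annotated rows. The sorted cells carried stem cell transcripts in every library, with 463 to 805 CPM (normalised counts at a common library size, scaled by the trimmed mean of M values) of Kit and 261 to 506 CPM of Hlf, while Cd48 reached at most 7.6 CPM and the T cell gene Cd3e at most 0.022 CPM. The 4 VFDM libraries lay close together, between 20.8 and 26.7 on the first principal component of 12671 rows, which held 54.9% of the variance. VF libraries 1 and 4 stood apart at -37.6 and -69.9, VF library 2 stood apart on the second component at -49.3, and VF library 3 was nearest to the VFDM group at 14.6. VF libraries 1, 2 and 4 also had 9.67%, 14.9% and 15.9% of their counts on small and ribosomal RNAs outside mitochondria, against 4.31% in VF library 3, 2.37% to 5.01% in VFDM and 2.03% to 5.15% in the 23 libraries of the treated arms. Mitochondrial transcripts took 1.82% and 0.859% of the counts of VF libraries 1 and 4, and 9.51% to 11.8% in the other 6 vehicle libraries. The results below are therefore given with the fit on all libraries and, where the call or the size changes, with VF libraries 1 and 4 left out, which sets 2 VF libraries against 4.

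Dnmt3a itself was measured at 297, 162, 187 and 288 CPM in VF libraries 1 to 4. In VFDM libraries 1 to 4 it was at 119, 120, 119 and 109 CPM. All VFDM libraries were below all VF libraries, and the highest VF values came from the same libraries 1 and 4 that stood apart. The means were 234 ± 68.9 and 117 ± 5.33 CPM (SD, n = 4), a log2 fold change of -1.0 (SE 0.21) with an adjusted p of 0.0113 in edgeR's quasi-likelihood test. Without VF libraries 1 and 4 it was -0.55 and the adjusted p was 1, and with 1 library left out the call was also lost for VF library 1 or 4 and VFDM library 1, 3 or 4 (adjusted p 0.0518 to 0.106). The counts are per gene and include reads outside any deleted exon, so the level left in VFDM does not measure the share of cells with an intact gene. Of the 22 tested writers, erasers and readers of DNA methylation, Dnmt3a was the only 1 called (background 0.785% lower). The maintenance methyltransferase Dnmt1 had a log2 fold change of -0.51 (SE 0.17, adjusted p 0.153), and the second de novo enzyme Dnmt3b one of -0.10 (SE 0.23, adjusted p 0.985).

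The introduced sequences were counted as rows of their own, and 1 of the 5 passed the test. The recombinase row CreERT2 was at 86.8, 158, 116 and 173 CPM in VF and at 244, 198, 232 and 222 CPM in VFDM. All 4 VFDM libraries were above all VF libraries, with a log2 fold change of 0.75 (SE 0.19, adjusted p 0.0473), and the adjusted p was 0.311 without VF libraries 1 and 4. The GFP reporter row was at 110, 325, 233 and 204 CPM in VF and at 412, 355, 388 and 393 CPM in VFDM. It did not overlap between the groups either, although its adjusted p was 0.138 (log2 fold change 0.83, SE 0.26). Exons 13 to 25 of the human JAK2 coding sequence were at 52.9, 62.2 and 17.8 CPM in VF libraries 1, 2 and 4, below the VFDM range of 81.3 to 99.7 CPM, and above it in VF library 3. In bulk libraries such as these, fewer cells of a kind and less RNA per cell cannot be told apart, here and in the groups below. Endogenous Jak2 was at 99.2 to 124 CPM in VF and 131 to 140 CPM in VFDM (log2 fold change 0.26, SE 0.12, adjusted p 0.35).

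**Figure D1:**
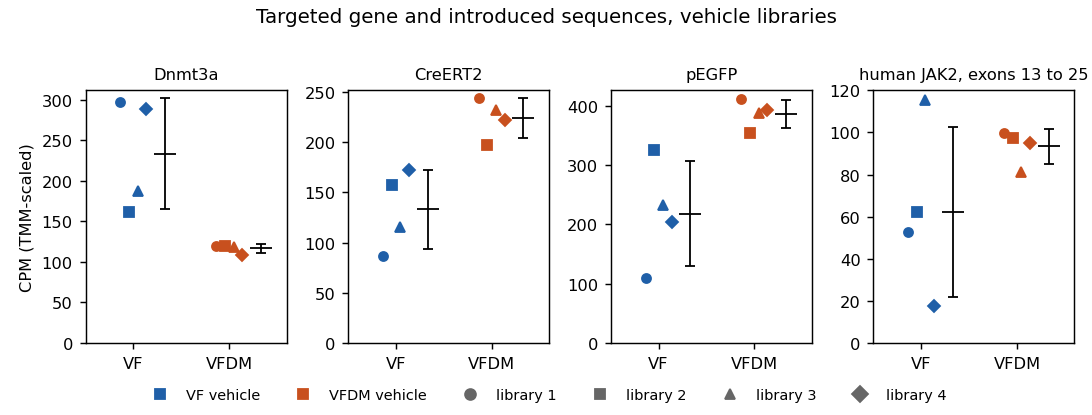
Dnmt3a, CreERT2, GFP and human JAK2 exons 13 to 25 in each vehicle library, in CPM on a linear axis from 0. Symbols mark the library number, colours the genotype, and the bar beside each group its mean ± SD (n = 4). Dnmt3a lay at 109 to 120 CPM in VFDM and 162 to 297 CPM in VF.

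Across the 22172 rows tested, 212 were called at an adjusted p under 0.05 (0.956%), 38 of them higher in VFDM (0.171%) and 174 lower (0.785%). The median log2 fold change of all rows was -0.006. Protein-coding genes made up 33 of the rows called higher and 85 of those called lower, and most of the remainder of the lower calls were 52 processed pseudogenes and 21 small or ribosomal RNAs. With VF libraries 1 and 4 left out, 45 rows were called (0.194%): 5 rows higher (0.0216%) and 40 lower (0.173%). The 5 were Ifi204, Ifi211, Mndal, Gm15446 and Echdc2. Runx3, Emilin2, Per1, Zfp987, Ncapd2 and Eif4a1 were the 6 protein-coding genes among the 40. Of the 45, 31 were among the 212 (5 higher and 26 lower). Small or ribosomal RNAs accounted for 25 of the 40. The VF libraries kept, 2 and 3, had 14.9% and 4.31% of their counts on such RNAs outside mitochondria. The part of VF library 2 in these 25 calls was not tested.

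Several genes of the Ifi200 family were higher in VFDM. The family is a cluster of interferon-inducible genes on mouse chromosome 1 whose HIN-domain proteins bind DNA and act in innate sensing, growth control and differentiation. Of its 13 tested members 4 were called higher (background 0.171%) and none lower, 11 had a positive fold change, and the median log2 fold change was 2.16. Their start-site windows in RefSeq (GRCm38.p6, 250 bases before to 50 after the start) are shown for 3 members that were called higher and, as a member that was not, for Ifi203. Capitals mark GAAA followed after any 2 bases by a second GAAA, searched on both strands, the core of the element bound by interferon-activated transcription factors.
Ifi211: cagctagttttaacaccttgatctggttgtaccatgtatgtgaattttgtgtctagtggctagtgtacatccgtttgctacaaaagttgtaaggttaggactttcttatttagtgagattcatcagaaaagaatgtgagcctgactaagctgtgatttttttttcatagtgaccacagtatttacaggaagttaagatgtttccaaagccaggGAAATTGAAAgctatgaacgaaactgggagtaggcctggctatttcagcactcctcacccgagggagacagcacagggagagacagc
Ifi205: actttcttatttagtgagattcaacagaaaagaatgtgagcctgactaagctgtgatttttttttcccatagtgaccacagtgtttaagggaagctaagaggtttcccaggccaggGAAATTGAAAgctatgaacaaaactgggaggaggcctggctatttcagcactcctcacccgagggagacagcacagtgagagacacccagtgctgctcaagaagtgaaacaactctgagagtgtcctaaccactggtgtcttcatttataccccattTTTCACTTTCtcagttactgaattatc
Mndal: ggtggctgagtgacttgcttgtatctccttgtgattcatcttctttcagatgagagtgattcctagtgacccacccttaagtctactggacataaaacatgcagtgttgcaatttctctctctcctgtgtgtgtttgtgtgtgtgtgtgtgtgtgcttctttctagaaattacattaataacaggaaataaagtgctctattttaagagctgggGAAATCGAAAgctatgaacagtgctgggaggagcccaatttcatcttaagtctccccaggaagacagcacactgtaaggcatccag
Ifi203: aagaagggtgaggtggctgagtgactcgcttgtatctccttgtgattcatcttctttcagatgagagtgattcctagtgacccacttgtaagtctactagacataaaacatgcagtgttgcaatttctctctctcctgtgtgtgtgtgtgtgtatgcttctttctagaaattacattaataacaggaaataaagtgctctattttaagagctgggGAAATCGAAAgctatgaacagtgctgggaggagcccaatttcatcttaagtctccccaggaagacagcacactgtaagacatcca
The windows are on the minus strand of chromosome 1 at 173912997 to 173913296 (Ifi211), 174031706 to 174032005 (Ifi205), 173880138 to 173880437 (Mndal) and 173942443 to 173942742 (Ifi203). In Ifi211, Mndal and Ifi203 the motif ended 27, 26 and 25 bases before the start. Of the 12 family members with a window, 9 held the motif in at least 1 window, against 3.44% of 32851 windows of all genes. The former counts genes and the latter windows, and members of the family are near-identical copies, so these shares are not directly comparable. Ifi203 had a further window without the motif, and Ifi204 had no window. The windows were poor in CpG, with 1 to 5 sites each. A match describes the letters and does not show that a factor bound there.

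Ifi204 was at 1.09, 0.668, 1 and 1.68 CPM in VF and at 42.2, 32.1, 39.7 and 32 CPM in VFDM. The groups were far apart, with the lowest VFDM library above every VF library. The log2 fold change was 5.08 (SE 0.63, adjusted p 9.21e-05), and it was 5.47 without VF libraries 1 and 4. Ifi211 was at 0.976, 0.755, 1.17 and 2.14 CPM in VF and at 16.6, 11.4, 15.9 and 15.7 CPM in VFDM. It also did not overlap, with a log2 fold change of 3.58 (SE 0.54, adjusted p 0.000433). Ifi205 followed the same order at lower levels, 0.41 to 1.22 CPM in VF and 4.66 to 6.15 CPM in VFDM (log2 fold change 2.68, SE 0.66, adjusted p 0.0361), and without VF libraries 1 and 4 its log2 fold change was 3.05 with an adjusted p of 0.293. Mndal, which was abundant in both genotypes, was at 105, 94, 137 and 51.4 CPM in VF and at 238, 197, 207 and 211 CPM in VFDM. Its log2 fold change was 1.14 (SE 0.19, adjusted p 0.00117).

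None of the other 9 tested members of the list was called, although 7 of these had positive fold changes. The 2 with negative fold changes had an unadjusted p under 0.05 in edgeR's test. Over the 13 members, 7 had all VFDM libraries above all VF libraries (6.34% of all rows). In 2 all VFDM libraries were below (6.87% of all rows). Ifi203, the most abundant, was at 148, 212, 269 and 87 CPM in VF and 247, 210, 214 and 208 CPM in VFDM, so the groups overlapped (log2 fold change 0.29, SE 0.20, adjusted p 0.678). The annotated spans of Mndal and Ifi203 overlap on the same strand, and members of the cluster are near-identical copies, so the split of reads between them is uncertain. Aim2, the cytosolic DNA sensor that assembles an inflammasome, was at 30.5 to 39 CPM in VF and 61.5 to 75.6 CPM in VFDM without overlap, with an adjusted p of 0.0624 (log2 fold change 1.02, SE 0.27). Ifi213 had counts in all VF libraries, between 0.755 and 2.37 CPM, and none in any VFDM library. Set against a floor of 3 counts over the VFDM group, it was at least 73.1-fold lower there, while its adjusted p was 0.157. The unprocessed pseudogene Ifi203-ps, in the cluster but not in the list, was called higher, with 5.73 to 8.95 CPM in VF and 18.1 to 21.4 CPM in VFDM (log2 fold change 1.32, SE 0.28, adjusted p 0.0119; 0.247 without VF libraries 1 and 4).

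The neighbourhood of the cluster was examined as well. Within 2.5 Mb on either side of the 4 members called higher, 54 rows had a mean log2 CPM of at least 0 over the 8 libraries. Of these 6 were called higher and 1 lower (background 0.171% and 0.785%), and the median log2 fold change was -0.16. The 6 were Ifi204, Ifi211, Ifi205 and Mndal, which set the region, and Ifi203-ps and Slamf1. The calls of those 4 were known when the region was drawn, so the count of 6 is no test of the neighbourhood. The 1 called lower was the pseudogene Rpl27-ps1. Around Dnmt3a, from the start of chromosome 12 to 5 Mb past the gene, Dnmt3a was the only call among 30 rows.

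**Figure D2:**
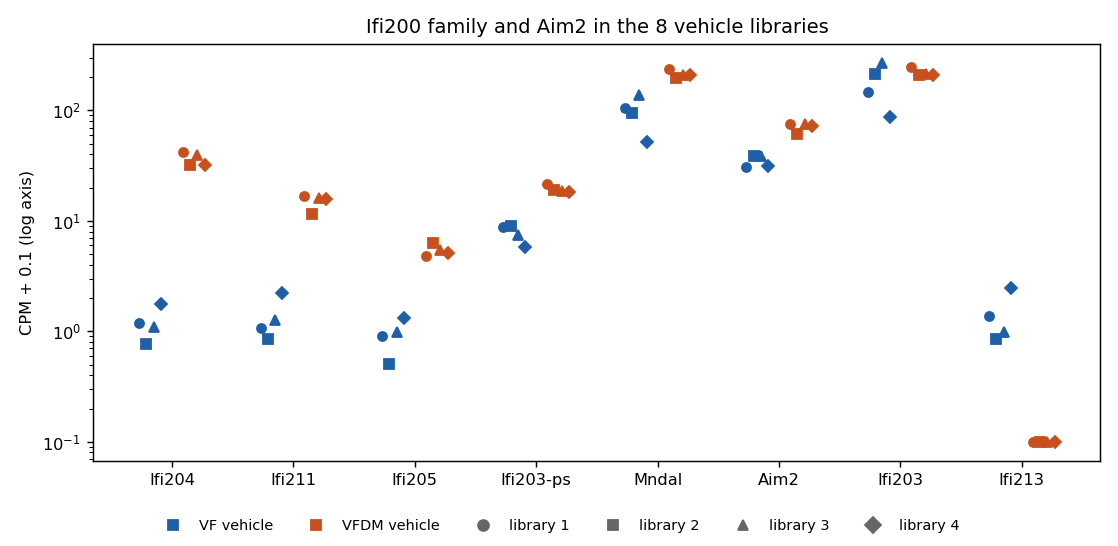
CPM plus 0.1 on a log axis for 8 rows of the Ifi200 cluster in each vehicle library. Ifi204, Ifi211, Ifi205, Ifi203-ps, Mndal and Aim2 had every VFDM library above every VF library, Ifi203 overlapped, and Ifi213 was at 0 CPM in all VFDM libraries.

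Genes that mark or maintain long-term stem cells were higher in VFDM where they passed the test. Of the 40 in this list, 3 were called higher (background 0.171%) and none lower. In it 29 had a positive fold change and 11 a negative one, with a median of 0.28. All VFDM libraries were above all VF libraries in 12 (6.34% of all rows) and below them in 2 (6.87% of all rows). An unadjusted p under 0.05 in edgeR's test occurred in 8 higher and 4 lower members. The list's mean log2 CPM was 5.51 to 5.64 in VF and 5.56 to 6.03 in VFDM, so VFDM libraries 2 and 4 reached only the VF range. Slamf1 encodes CD150, the antigen on which the cells were gated. It was at 32.1, 40.9, 44.5 and 21.8 CPM in VF and at 74.8, 59.3, 72.7 and 93.3 CPM in VFDM. The groups did not overlap, and the log2 fold change was 1.11 (SE 0.21, adjusted p 0.0046). Angpt1, a ligand of the Tie2 receptor on stem cells and endothelium, was at 294 to 571 CPM in VF and 613 to 704 CPM in VFDM (log2 fold change 0.58, SE 0.14, adjusted p 0.0379). Eya1, a transcriptional coactivator and phosphatase, was at 37.7 to 61.6 CPM in VF and 77.2 to 109 CPM in VFDM (log2 fold change 0.85, SE 0.22, adjusted p 0.0444).

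Mmrn1, a multimerin of platelets and endothelium that is also transcribed in LT-HSCs, comes from the megakaryocyte and platelet list. It was at 85.7, 107, 185 and 53.9 CPM in VF and at 353, 255, 306 and 219 CPM in VFDM. Every VFDM library was above the highest VF library, with a log2 fold change of 1.39 (SE 0.29, adjusted p 0.0131). It was the 1 gene called among the 30 tested of that list (background 0.171% higher), in which Itga2b had a log2 fold change of -1.18 (adjusted p 0.188). Itga2b also belongs to the long-term stem cell list. The transcription factor gene Tcf4, of the lists for multipotent progenitors and for dendritic cells, was called higher (log2 fold change 0.54, SE 0.13, adjusted p 0.0375). Hlf, a regulator of stem cell quiescence, was at 261 to 309 CPM in VF and 415 to 506 CPM in VFDM, yet its adjusted p was 0.114. Meis1, Erg and Kit likewise had no overlap between the groups and adjusted p values of 0.0945, 0.106 and 0.109, with log2 fold changes of 0.39, 0.52 and 0.51. No gene was called among the 19 tested genes listed for their response to Dnmt3a loss in stem cells. Their median log2 fold change was 0.24, and 8 had VFDM libraries entirely above VF (6.34% of all rows). Without VF libraries 1 and 4, none of Slamf1, Angpt1, Eya1, Mmrn1 and Tcf4 was called, and their log2 fold changes were 0.85, 0.28, 0.69, 0.99 and 0.44.

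**Figure D3:**
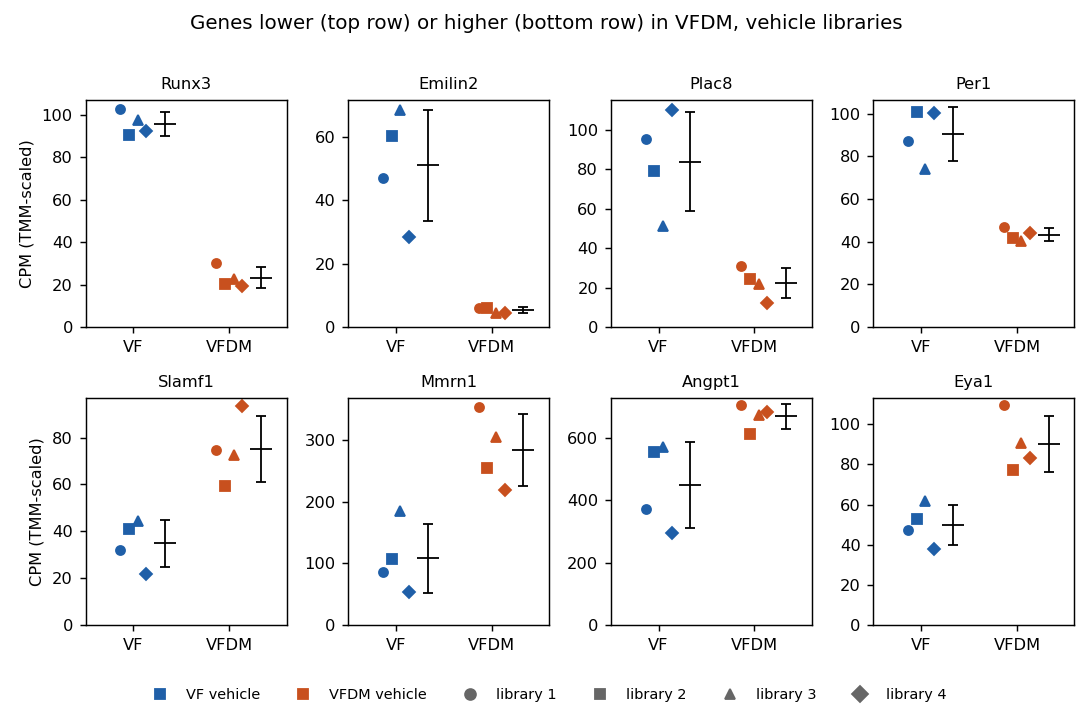
CPM of 8 genes in each vehicle library, on linear axes from 0, with the mean ± SD beside each group (n = 4). Runx3, Emilin2, Plac8 and Per1 were lower in all VFDM libraries, and Slamf1, Mmrn1, Angpt1 and Eya1 were higher.

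Among the genes lower in VFDM, Runx3 had the smallest p of all rows. It encodes a Runt-domain transcription factor known for its part in T and natural killer cell development and in myeloid cells. It was at 103, 90.4, 97.5 and 92.5 CPM in VF and at 30.4, 20.3, 22.7 and 19.5 CPM in VFDM. The VF libraries lay close together here, including those that stood apart in other respects. The log2 fold change was -2.04 (SE 0.25, adjusted p 5.44e-05), and -1.98 without VF libraries 1 and 4. Emilin2, an extracellular matrix glycoprotein, was at 47.1, 60.3, 68.5 and 28.4 CPM in VF and at 6.05, 6.15, 4.39 and 4.48 CPM in VFDM. It did not overlap, with a log2 fold change of -3.28 (SE 0.57, adjusted p 0.00337). Myom1, a sarcomere protein also encoded on chromosome 17, moved the other way, from 4.05 to 7.88 CPM in VF to 22.4 to 39.5 CPM in VFDM (log2 fold change 2.23, SE 0.54, adjusted p 0.04, and 0.541 without VF libraries 1 and 4).

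Plac8, a gene of early myeloid and lymphoid progenitors, was at 95.3, 79.1, 51.3 and 110 CPM in VF and at 30.8, 24.5, 21.6 and 12.2 CPM in VFDM. Its log2 fold change was -1.92 (SE 0.30, adjusted p 0.000884), and it was the 1 call among 21 genes of the myeloid progenitor list (background 0.785% lower). The integrin chain gene Itgal was at 6.23 to 19.3 CPM in VF and 2.1 to 4.71 CPM in VFDM (log2 fold change -1.89, SE 0.40, adjusted p 0.0113). Cdkn2c, an inhibitor of the kinases that drive cells out of G1, was at 29.1 to 55.3 CPM in VF and 5.62 to 14.2 CPM in VFDM (log2 fold change -1.78, SE 0.40, adjusted p 0.0176). Without VF libraries 1 and 4 the adjusted p was 0.0639 for Plac8, 0.582 for Itgal and 0.449 for Cdkn2c, and for Nkg7, described next, 0.247. The cytotoxic granule gene Nkg7 was the 1 call among 13 T and natural killer cell markers (background 0.785% lower), with a log2 fold change of -1.51 (SE 0.39, adjusted p 0.0479). The summed level of those markers was 16.4 to 27 CPM in VF and 9.2 to 13.2 CPM in VFDM, and the part of such cells in the result was not tested. Neutrophil markers summed to no more than 2.91 CPM in any vehicle library. Gata1, the erythroid and megakaryocytic transcription factor, was at 15.4 to 26.8 CPM in VF and 6.99 to 9.75 CPM in VFDM, with an adjusted p of 0.0624 (log2 fold change -1.24, SE 0.33).

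Per1, a repressor of the circadian clock, was at 87.4, 101, 74.2 and 100 CPM in VF and at 47, 41.6, 40.2 and 44.1 CPM in VFDM. The log2 fold change was -1.07 (SE 0.18, adjusted p 0.00102), and -0.98 without VF libraries 1 and 4. Per1 is also a direct target of the glucocorticoid receptor, as are Tsc22d3, which was at 90.4 to 140 CPM in VF and 47.6 to 57.2 CPM in VFDM (log2 fold change -1.11, SE 0.22, adjusted p 0.00738), and Fkbp5, a co-chaperone of that receptor (log2 fold change -0.89, SE 0.21, adjusted p 0.0261). In a list of 16 glucocorticoid-responsive genes drawn up after these 3 were seen, the 3 were the only calls (background 0.785% lower). The calls of the 3 were known beforehand, so their count is no test of the list. In it 13 had negative fold changes, and the median was -0.47. Tsc22d3 and Fkbp5 were not called without VF libraries 1 and 4, with adjusted p values of 0.135 and 1.

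Genes of growth and division had mostly negative fold changes, and all their calls were lower in VFDM. Of 69 tested rows of replication-dependent histones, whose transcripts accumulate in S phase and lack a poly(A) tail, 6 were called lower (background 0.785%) and none higher, with a median log2 fold change of -1.32, and in 37 all VFDM libraries were below all VF libraries (6.87% of all rows). Hist1h1a, a linker histone gene, was at 409, 576, 200 and 440 CPM in VF and at 98.3, 102, 125 and 137 CPM in VFDM. VF library 3 was the lowest of its group and still above VFDM (log2 fold change -1.81, SE 0.36, adjusted p 0.0113). The linker histone genes Hist1h1b and Hist1h1d and the H3 genes Hist1h3h and Hist1h3i had log2 fold changes of -1.64, -1.61, -2.31 and -2.33. The list's mean log2 CPM was highest in VF library 2, at 7.27, and lowest among VF in library 3, at 5.29, with VFDM at 4.54 to 5.02.

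Of 30 S phase and replication genes 2 were called lower (background 0.785%), the licensing factor Cdt1 (log2 fold change -0.79, SE 0.20, adjusted p 0.0395) and the helicase subunit Mcm2 (log2 fold change -0.72, SE 0.18, adjusted p 0.0455). In this list 28 of 30 fold changes were negative, with a median of -0.46. In 17 genes all VFDM libraries were below all VF libraries (6.87% of all rows). All 30 genes of the G2 and M phase list had negative fold changes, with a median of -0.51, and none was called; the nearest was the spindle checkpoint kinase Bub1b (log2 fold change -0.85, adjusted p 0.0559). The mean log2 CPM of the S phase list was 6 to 6.16 in VF and 5.53 to 5.92 in VFDM, without overlap.

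Of 55 cytosolic ribosomal protein genes 7 were called lower (background 0.785%) and none higher, with 50 negative fold changes and a median of -0.39. The 7 were Rps19, Rplp2, Rps2, Rps9, Rpl13a, Rps15 and Rpl19. Rps19 was at 340, 280, 158 and 425 CPM in VF and at 143, 134, 151 and 147 CPM in VFDM. VF library 3 was thus close to the VFDM libraries while the other VF libraries were higher, and the summed list followed that order, with 16500, 23100, 14500 and 21900 CPM in VF libraries 1 to 4 and 13400 to 14400 CPM in VFDM. Processed pseudogenes, many of which are copies of ribosomal protein messages, had 52 lower and no higher calls among 2623 rows (background 0.785%), Rps2-ps13, Rpsa-ps5 and Rpl31-ps14 among them with log2 fold changes of -2.24, -3.15 and -2.36. Reads of a pseudogene and its parent may be interchanged, so these calls are uncertain. The 52 became 1 without VF libraries 1 and 4, Rps23-ps2, and the log2 fold changes of Rps2-ps13, Rpsa-ps5 and Rpl31-ps14 were -0.68, -1.18 and -1.71. Leaving out VF library 4 alone gave 8, and leaving out VF library 3 gave 112. Of 41 rows of nuclear-encoded oxidative phosphorylation genes 2 were called lower (background 0.785%), Cox4i1 (log2 fold change -1.09, adjusted p 0.0237) and Ndufa2 (log2 fold change -0.96, adjusted p 0.0447). Of 31 ribosome biogenesis genes 1 was called lower (background 0.785%), the nucleolar methyltransferase Fbl (log2 fold change -0.87, adjusted p 0.0318). Without VF libraries 1 and 4 no histone, S phase, ribosomal protein or oxidative phosphorylation gene was called.

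**Figure D4:**
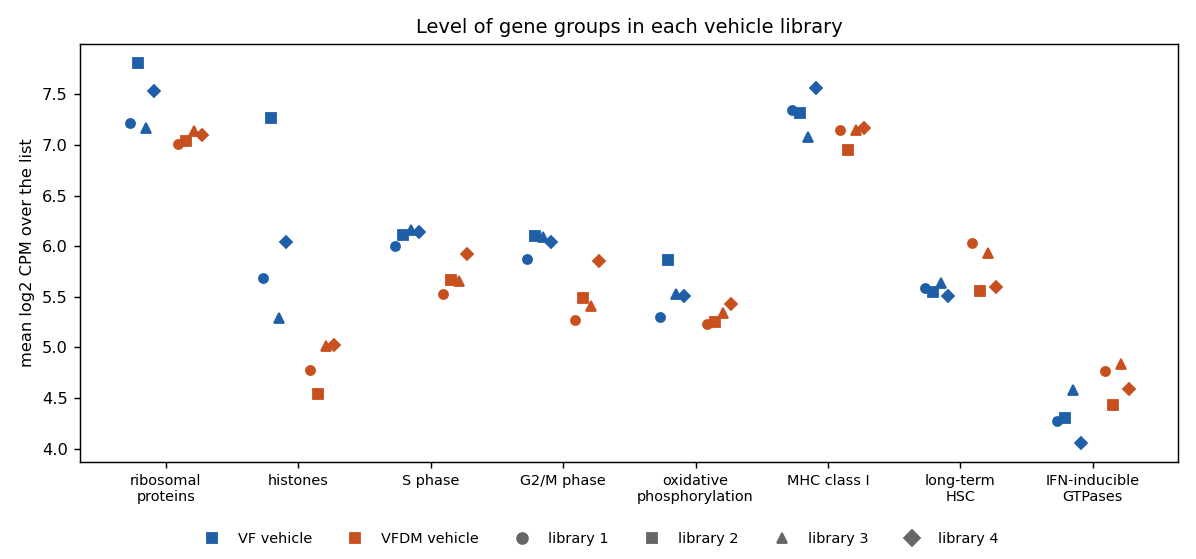
Mean log2 CPM over 8 gene groups in each vehicle library. Histones were at 5.29 to 7.27 in VF and 4.54 to 5.02 in VFDM, S phase genes did not overlap, and ribosomal protein genes separated VFDM from VF libraries 2 and 4 more than from library 3.

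Small structured RNAs were frequent among the lower calls. Of 710 rows of small and ribosomal RNAs 21 were called lower and 1 higher, the mitochondrial glycine tRNA mt-Tg (background 0.785% and 0.171%; mt-Tg had an adjusted p of 0.0305, and 0.201 without VF libraries 1 and 4). The U3 small nucleolar RNA genes, whose product guides cleavage of the ribosomal RNA precursor, led this class. Rnu3a was at 52.9, 200, 12.8 and 135 CPM in VF and at 13.4, 8.52, 9.67 and 6.84 CPM in VFDM. VF library 3 lay within the VFDM range, so the groups overlapped and the log2 fold change of -3.38 (SE 0.50, adjusted p 0.000433) came from the other 3 VF libraries. Rnu3b3 and Rnu3b1 were likewise lowest in VF library 3 and had log2 fold changes of -4.73 and -4.01, and each U3 gene was listed in pairs of rows with identical counts. Snord15a was at 48.4 CPM in VF library 3 and 233 to 457 CPM in the other VF libraries, against 38.9 to 61.2 CPM in VFDM. The 5S ribosomal RNA copies n-R5s130, n-R5s118, n-R5s115 and n-R5s193 had log2 fold changes between -3.37 and -3.57 and were highest in VF library 2, where n-R5s130 reached 150 CPM. Mir6236 was at 2073 to 6725 CPM in VF and 544 to 1214 CPM in VFDM (log2 fold change -2.43, SE 0.41, adjusted p 0.00319), and without VF libraries 1 and 4 its log2 fold change was -1.54 with an adjusted p of 0.247. The U3 genes and Snord15a were lowest among VF in library 3, which had the smallest share of small RNA given above. Mir6236 did not follow that share, with 0.52%, 0.2%, 0.206% and 0.483% of the counts of VF libraries 1 to 4. The part of the share of small RNA in these rows was not tested. The whole share, 11.2% ± 5.34 in VF and 3.36% ± 1.15 in VFDM (SD, n = 4), differed with an exact two-sided permutation p of 0.0571, where 0.0286 is the smallest possible, and 0.286 after adjustment over 5 library measures.

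Few interferon-stimulated genes outside the Ifi200 family passed the test. Of 51 type I interferon-stimulated genes 2 were called higher (background 0.171%) and none lower, with a median log2 fold change of 0.07. They were Ifih1, the cytosolic sensor of long double-stranded RNA, at 39.9 to 73.2 CPM in VF and 79.2 to 97.1 CPM in VFDM (log2 fold change 0.66, SE 0.15, adjusted p 0.0232), and Samd9l, an antiviral translation inhibitor (log2 fold change 0.69, SE 0.17, adjusted p 0.0415). Among 18 interferon-inducible GTPases 2 were called higher (background 0.171%), Iigp1 (log2 fold change 0.90, SE 0.22, adjusted p 0.0318) and Tgtp2 (log2 fold change 0.73, SE 0.18, adjusted p 0.0357), 15 fold changes were positive, and the median was 0.48. Genes of MHC class I presentation, which interferon also induces, went the other way: 3 of 21 were called lower (background 0.785%) and none higher, with a median of -0.31. The 3 were H2-Q7 (log2 fold change -0.66, SE 0.13, adjusted p 0.00722), H2-Q6 (-0.60, SE 0.14, adjusted p 0.0294) and H2-K1 (-0.54, SE 0.13, adjusted p 0.0326). H2-K1 was at 1241, 1115, 852 and 1555 CPM in VF and 835, 725, 870 and 846 CPM in VFDM, so VF library 3 fell within the VFDM range. None of these interferon and MHC genes was called without VF libraries 1 and 4.

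Other programmes gave no call in edgeR's test. These were 25 targets of JAK2 and STAT5 signalling, 26 genes of the NF-kB response, 21 immediate early genes, 20 p53 targets, 23 Hox genes and cofactors, 25 Polycomb and Trithorax genes, 28 genes of Wnt, Notch and TGF-beta signalling, 25 adhesion genes, 29 imprinted genes and 3 germline genes that methylation keeps silent in somatic cells. Unadjusted p values under 0.05 occurred in 5, 0, 1, 1, 4, 5, 4, 6, 4 and 0 of them, against 11.4% of all rows. Erythroid, monocyte, neutrophil, mast cell, B cell and stromal marker lists had no call either. Fewer than 80% of the called genes matched a RefSeq promoter window, so the CpG content of promoters was not compared between called and other genes.

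The treated arms hold other libraries of the same genotypes, so they show which vehicle differences were seen again. Of the 38 genes called higher under vehicle, 31, 30 and 19 had the same sign under IFN, AZA and COMBO, against 48.1%, 48.7% and 44.5% positive among all rows. In the same direction 2, 17 and 7 of them were called (background 0.00902%, 0.636% and 1.2%; 0.00902%, 0.74% and 5.11% in either direction), and 5 were called in the opposite direction under COMBO. Of the 174 called lower, 123, 78 and 48 kept their sign, against 51.8%, 51% and 54.1% negative among all rows, and 0, 8 and 4 were called lower (background 0%, 0.104% and 3.91%). Under IFN, the library labelled VFDM IFN 3 goes against its label, with Dnmt3a at 162 CPM where the other 3 lay at 102 to 111 CPM, and without it 7 of the 38 and 3 of the 174 were called in the same direction (background 0.0316% and 0.0136%; 0.0452% in either direction).

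A set of 23 of the 212 genes called under vehicle had the same sign in all arms and was called in at least 1 treated arm. Of these 14 were higher and 9 lower in VFDM. Among all 22172 rows, called under vehicle or not, 273 had the same sign in all arms and a call in at least 1 treated arm. Ifi204 had log2 fold changes of 2.44, 6.87 and 2.88 under IFN, AZA and COMBO, and Ifi211 of 2.39, 5.54 and 3.33. Gm15446, a predicted zinc finger gene on chromosome 5, was called in every arm. It was at 4.31, 4.29, 5.15 and 4.22 CPM in VF vehicle and at 24.5, 31.7, 27.3 and 28.8 CPM in VFDM vehicle, with log2 fold changes of 2.64 under vehicle and 2.18, 2.63 and 2.35 under IFN, AZA and COMBO. The zinc finger gene Zfp932, its neighbour, was called under vehicle only (log2 fold change 1.16, SE 0.27, adjusted p 0.0232), and the difference between arms had an adjusted p of 0.247. Klk1b22, a kallikrein, had no count in any VF vehicle library and 1.78 to 12.6 CPM in VFDM, at least 308-fold higher against a floor of 3 counts over the VF group, with an adjusted p of 0.00826. Echdc2, a gene related to mitochondrial enoyl-CoA hydratases, was at 106 to 176 CPM in VF and 217 to 287 CPM in VFDM, with log2 fold changes of 0.86 under vehicle and 0.81 to 0.95 in the treated arms.

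Of the 9 lower genes, Dnmt3a had log2 fold changes of -0.50, -1.01 and -1.80 under IFN, AZA and COMBO, and Igfbp4, a binding protein of insulin-like growth factors, of -0.71 under vehicle and -0.39, -1.03 and -0.78. The zinc finger gene Zfp987 was at 3.62, 16.9, 15.6 and 3.76 CPM in VF vehicle and 0.71 to 1.01 CPM in VFDM vehicle (log2 fold change -3.60, SE 0.80, adjusted p 0.0177). Gm21887 and Gm47283, predicted genes on chromosomes X and Y, had log2 fold changes of -1.63 and -1.38 under vehicle and -1.55 and -1.69 under AZA, and reads may be split between them. The vehicle call was lost without VF libraries 1 and 4 for Klk1b22, Igfbp4, Gm21887, Gm47283 and Zfp932, with adjusted p values of 0.157, 0.385, 0.0639, 0.238 and 0.745. The non-coding rows AC102496.1 and Gm43305 were at 6.48 to 15.9 and 29.1 to 36.7 CPM in VF vehicle and no higher than 0.154 and 0.473 CPM in VFDM vehicle.

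Some genes differed between arms. The vehicle difference was tested against the mean genotype difference of the treated arms, and 186 rows passed (0.839%), 59 more positive under vehicle (0.266%) and 127 more negative (0.573%). Angpt1, Eya1, Mmrn1, Hlf, Meis1, Erg and Tcf4 were more positive, with log2 differences of 0.98, 1.33, 1.65, 1.46, 0.65, 0.91 and 0.75, and all 7 had negative fold changes under COMBO, from -0.50 for Tcf4 to -1.92 for Hlf. Zfp608 and the endosomal adaptor gene Appl2 were more positive too, by 1.28 and 1.97, with COMBO fold changes of -1.91 and -3.39. Plac8 had a log2 fold change of -1.92 under vehicle and -0.12, 0.83 and 0.38 under IFN, AZA and COMBO, and its difference of -2.28 had an adjusted p of 0.00194. Emilin2 had log2 fold changes of -3.28 under vehicle and -0.40, 0.05 and 0.37 in the other arms (difference -3.29, adjusted p 0.00996). Runx3 was negative in every arm, at -0.75, -0.61 and -0.55 after -2.04 under vehicle (difference -1.41, adjusted p 0.00992). Slamf1, Cdkn2c and Igfbp4 did not pass this test, with adjusted p values of 0.6, 0.68 and 1. Without VF vehicle libraries 1 and 4, 33 rows in place of 186 passed this test.

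**Figure D5:**
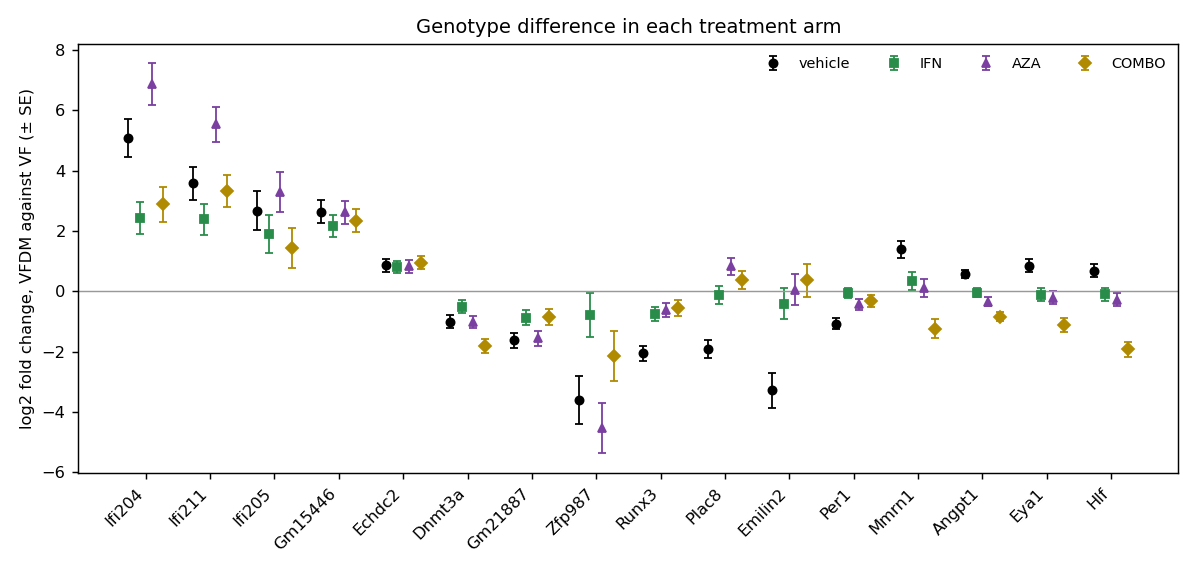
Log2 fold change of VFDM against VF (± SE) under vehicle, IFN, AZA and COMBO for 16 genes, with a line at 0. Ifi204, Ifi211, Ifi205, Gm15446 and Echdc2 were positive in all arms, Dnmt3a, Gm21887, Zfp987 and Runx3 negative in all arms, and Mmrn1, Angpt1, Eya1 and Hlf positive under vehicle and negative under COMBO.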

How the data were processed

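RNA from sorted bone marrow LT-HSCs was sequenced as stranded total RNA. The deposited table holds raw counts per gene for 31 libraries (55492 rows, 5 of them introduced sequences). Per the submitters' processing notes, reads were handled with STAR 2.7.10a and featureCounts on mm10, with settings that these notes do not list. GENCODE symbols matched 55227 rows. Counts were tested with edgeR 4.0.16 (R 4.3.3), robust quasi-likelihood, 1 mean for each of 8 groups, TMM scaling, and a filter of 10 counts by group size and 15 in total, which left 22172 rows. P-values were Benjamini-Hochberg adjusted over them, and "called" means an adjusted p under 0.05. SE is the fold change divided by the root of F. Means are over libraries, and floors of 3 counts cover counting error only.

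The comparison, its 35 gene lists and the named genes were chosen with earlier results of these data known. Named were up to 15 called, non-overlapping genes each way by fold change with a mean log2 CPM of at least 2, up to 4 per list by p, Dnmt3a, Dnmt1, Dnmt3b, Jak2, the introduced sequences, and genes called across arms or in the test between arms. Others, Runx3, Per1, Tsc22d3, Fkbp5, Itgal and Cdkn2c among them, were added after their values were seen. Alternatives used DESeq2 1.42.0, limma 3.58.1 voom, other scaling, filters and left-out libraries. The main fit did not pair libraries by replicate number.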

Additional observations from a re-analysis of the deposited data

Results flagged for a closer look

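Among the genes named in the text, 38 had a genotype difference under vehicle that differed from the mean difference of the treated arms in edgeR's quasi-likelihood test with Benjamini-Hochberg adjustment. The values are differences of log2 fold changes. More positive under vehicle were Angpt1 (0.98), Erg (0.91), Eya1 (1.33), Hlf (1.46), Meis1 (0.65), Mmrn1 (1.65) and Tcf4 (0.75), and also Appl2 (1.97), Pcmtd1 (0.94) and Zfp608 (1.28). More negative under vehicle were the regulators and surface genes Emilin2 (-3.29), Gata1 (-1.92), Itgal (-2.35), Per1 (-0.80), Plac8 (-2.28), Runx3 (-1.41) and H2-Q7 (-0.70). The growth genes Cdt1 (-0.96), Cox4i1 (-1.16), Hist1h1a (-1.75), Rplp2 (-1.06), Rps15 (-1.21), Rps19 (-1.25), Rps2 (-0.94) and Rps9 (-0.87) were also more negative. So were the pseudogenes Rpl27-ps1 (-2.23), Rpl31-ps14 (-2.58), Rps2-ps13 (-2.30) and Rpsa-ps5 (-3.30) and the small RNAs Mir6236 (-2.36), Rnu3a (-3.41), Rnu3b1 (-4.15), Rnu3b3 (-5.04), Snord15a (-2.97), n-R5s115 (-3.83), n-R5s118 (-4.05), n-R5s130 (-4.03) and n-R5s193 (-3.96). VF vehicle libraries 1 and 4 enter every one of these differences.

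In 13 of 198 gene-by-group sets of 4 libraries, 1 library lay far from the other 3 by Dixon's criterion, which chance meets in about 1 of 20 sets. VF library 2 was high for n-R5s115 (105 CPM), n-R5s118 (127 CPM) and n-R5s130 (150 CPM). VF library 3 was high for Gm15446 at 5.15 CPM, Ifi208 at 0.0179 CPM and Ifi214 at 0.0538 CPM. Ifi208 and Ifi214 were at 0 in the other VF libraries, so any count in VF library 3 meets the criterion. In that library 3 counts are 0.0534 CPM before scaling, so Ifi208 and Ifi214 rest on very few reads. VFDM library 1 was high for Ifi203 (247 CPM) and low for Rpsa-ps5 (3.2 CPM) and Zfp932 (32.1 CPM). VFDM library 2 was low for Ifi211 (11.4 CPM) and Psmb9 (24.9 CPM). VFDM library 4 was at 109 CPM for Dnmt3a and 10.4 CPM for Zbtb16.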

How the results depend on the processing

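The number of rows called between genotypes under vehicle depended on the processing. Against 212 rows (38 higher, 174 lower), 136 were called with no filter on low counts (103 lower), 629 with DESeq2 (159 higher, 470 lower), 899 with voom (251 and 648), 130 in a fit of only the 8 vehicle libraries (83 lower) and 97 among protein-coding rows alone (70 lower). Of the 130, 44 were among the 212 (11 higher and 33 lower). In that fit no type I interferon-stimulated, interferon-inducible GTPase or MHC class I gene kept its call. Nor did any ribosomal protein, S phase or oxidative phosphorylation gene. Small or ribosomal RNAs called lower fell from 21 to 8 there. The named U3 genes, Snord15a and the named 5S copies lost their calls in edgeR's test, with adjusted p values of 0.0802 to 0.14. Mndal lost its call too, with an adjusted p of 0.0508. The count was 45 without VF libraries 1 and 4 (5 and 40). It was 809 without libraries of other arms that detected fewer than 20000 rows (276 and 533). Leaving out 1 vehicle library gave 63 to 815 rows, 10 to 289 higher and 53 to 526 lower; the lowest count came without VF library 4 and the highest without VF library 3. The test between arms called 718 rows with DESeq2, 366 with voom, 89 among protein-coding rows, 33 without VF libraries 1 and 4, 470 without the libraries of few rows and 57 to 671 with 1 library left out, against 186. The 23 genes shared with a treated arm became 40 with DESeq2, 15 among protein-coding rows, 8 without VF libraries 1 and 4 and 9 to 28 with 1 library left out. Dnmt3a ranged from -1.11 to -0.84 with 1 library left out and was -0.55 without VF libraries 1 and 4. The cause of these shifts was not tested. Over 102 rows of named genes, in which each U3 gene is a pair of rows with identical counts, 1810 values were obtained. Many of these genes were chosen by their values in the same libraries, so kept directions are no independent test. Of the 1810, 1359 kept direction and side of the threshold and 389 lost the call. A further 56 gained it and 6 changed sign, none of them for a called gene. The 6 were human JAK2 exons 3 to 12 with voom (-0.11), without VF replicate 4 (-0.21) and without VF libraries 1 and 4 (-0.38), Dnmt3b without VF replicate 1 (0.03) and without VF libraries 1 and 4 (0.09), and Ifi203 without those 2 (-0.1). With 1 library left out, Dnmt3b ranged from -0.17 to 0.03 and JAK2 exons 3 to 12 from -0.21 to 0.42. Of 77 called rows, Runx3, Gm15446, Per1, Emilin2 and AC102496.1 kept the call in every alternative run, 5 in all. With the replicate number as a block, 174 rows were called, 169 of them among the 212. Same-numbered libraries had correlations of 0.08, -0.12, 0.05 and 0.1, and 2 of 4 numbers correlated best with themselves. Whether libraries of the same number share a donor or a batch was not tested. Leaving out the library labelled VFDM IFN 3, chosen after seeing the data, gave 200 rows.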

Other observations

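Other genes called higher in VFDM vehicle were the adenylosuccinate synthase gene Adss (log2 fold change 0.77, adjusted p 0.00997), the polarity scaffold gene Mpp5 (0.81, adjusted p 0.0131) and Pcmtd1 (0.83, adjusted p 0.0415), all by edgeR's quasi-likelihood test. Without VF libraries 1 and 4 none of the 3 was called, with adjusted p values of 0.456, 0.346 and 1. The condensin subunit gene Ncapd2 was called lower, with 728 CPM in VF library 2 and 259 to 344 CPM in the other VF libraries against 217 to 234 CPM in VFDM.

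The library labelled VFDM IFN 3 lay on the VF side of the other 3 VFDM IFN libraries for 19 of the 23 genes shared between vehicle and a treated arm, and within the range of VF IFN for 14. Its Ifi204 level was 12.5 CPM where the other 3 had 68.9 to 79.6 CPM, and its Gm15446 level was 6.23 CPM against 22.2 to 33.7 CPM.

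Mitochondrially encoded genes had a median log2 fold change of 0.71 over 15 rows with no call. Their summed level was 19500 and 11900 CPM in VF libraries 1 and 4, and 125000 and 117000 CPM in VF libraries 2 and 3, with VFDM at 89300 to 102000 CPM.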
